A study of Mus musculus with 12 samples.

Results

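Nuclear receptors other than the glucocorticoid receptor were followed in mouse liver as 38 genes, chosen as the probes whose gene name on the array equalled a name in a fixed list of receptors. The list covers 17 classes, from the estrogen, thyroid hormone, retinoid and vitamin D receptors to the xenobiotic receptors and the orphan receptors of the NR2, NR4, NR5 and NR6 groups. These 38 genes had 64 probes among 41174 on the array, and they are 38 of the 27962 genes and unnamed transcripts measured. Of the 38, 30 were bright enough to be tested, as were 18788 of all 27962.

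Total RNA was measured on 12 one-colour arrays, 1 liver per array, with 3 mice in each of 4 groups. The groups were HESKOL mice given dexamethasone, HESKOL mice left untreated, wild-type mice given dexamethasone and wild-type mice left untreated. All were male C57BL/6 mice aged 8 to 10 weeks, and all were adrenalectomized, so that the adrenal source of glucocorticoid was missing in every group, controls included. Treated mice had received dexamethasone, a synthetic glucocorticoid, at 1 mg/kg into the peritoneum 6 hours before the liver was taken, and the labels describe no injection of vehicle into untreated mice. HESKOL is not spelled out, the labels call these animals knockout mice and the title of the study names Hes1, a transcriptional repressor of the Notch pathway. What drives the deletion, and in which cells, is not given in the sources used here.

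Nuclear receptors are transcription factors, most of which carry a DNA-binding zinc finger domain and a pocket for a small lipid-soluble ligand. Steroid receptors bind DNA as homodimers, whereas the thyroid hormone, retinoic acid, vitamin D, liver X, xenobiotic and peroxisome proliferator-activated receptors pair with a retinoid X receptor. In liver they set bile acid, drug, lipid and glucose metabolism, and coactivators and corepressors decide whether a bound gene is switched on or off. HES repressors bind the class C site (CACGNG) and the N box (CACNAG), and glucocorticoid receptor binds a palindrome, GNACA and TGTNC with 3 bases between them, where N is any base.

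The promoters of 3 receptor genes are shown, namely Esr1, Vdr and Rxrg, whose values are described in most detail, as given by RefSeq on build GRCm38.p6, from 250 bases before to 50 bases after the annotated start. Capitals mark a match to CACGNG or CACNAG on either strand. The second Esr1 promoter holds CTCGTG, which matches both motifs on the reverse strand, so that the 2 matches are the same 6 bases.
Esr1, first promoter, chr10:4611739-4612038, plus strand: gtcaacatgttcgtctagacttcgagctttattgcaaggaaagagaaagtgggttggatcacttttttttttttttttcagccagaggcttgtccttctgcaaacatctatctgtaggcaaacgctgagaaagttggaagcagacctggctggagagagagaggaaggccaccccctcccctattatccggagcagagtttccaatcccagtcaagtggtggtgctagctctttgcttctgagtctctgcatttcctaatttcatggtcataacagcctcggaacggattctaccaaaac
Esr1, second promoter, chr10:4709908-4710207, plus strand: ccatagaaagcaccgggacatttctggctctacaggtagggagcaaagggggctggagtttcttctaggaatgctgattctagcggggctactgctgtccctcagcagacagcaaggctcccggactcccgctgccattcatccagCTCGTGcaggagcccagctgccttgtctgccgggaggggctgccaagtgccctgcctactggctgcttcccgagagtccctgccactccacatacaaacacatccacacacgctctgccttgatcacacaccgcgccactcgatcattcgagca
Vdr, chr15:97908247-97908546, minus strand: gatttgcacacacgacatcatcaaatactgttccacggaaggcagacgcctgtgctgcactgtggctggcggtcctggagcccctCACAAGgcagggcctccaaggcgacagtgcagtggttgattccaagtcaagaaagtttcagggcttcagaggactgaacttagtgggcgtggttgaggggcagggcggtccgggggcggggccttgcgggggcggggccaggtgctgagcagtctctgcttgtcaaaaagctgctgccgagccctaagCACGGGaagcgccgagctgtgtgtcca
Rxrg, first promoter, chr1:167598112-167598411, plus strand: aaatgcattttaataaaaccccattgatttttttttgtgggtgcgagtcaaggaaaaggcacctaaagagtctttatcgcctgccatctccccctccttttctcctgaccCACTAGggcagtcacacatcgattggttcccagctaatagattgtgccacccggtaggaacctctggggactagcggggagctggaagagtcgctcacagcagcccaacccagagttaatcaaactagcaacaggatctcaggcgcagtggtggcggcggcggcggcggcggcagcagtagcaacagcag
Rxrg, second promoter, chr1:167618015-167618314, plus strand: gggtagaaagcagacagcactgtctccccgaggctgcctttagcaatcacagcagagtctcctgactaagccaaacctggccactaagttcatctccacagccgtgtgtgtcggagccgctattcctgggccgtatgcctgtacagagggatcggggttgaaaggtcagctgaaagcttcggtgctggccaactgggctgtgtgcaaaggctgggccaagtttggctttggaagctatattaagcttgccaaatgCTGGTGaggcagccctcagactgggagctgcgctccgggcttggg
The first Esr1 promoter held neither HES motif, and the match in the second lay at position -104 from the start. Vdr had an N box at -165 and a class C match at 23, and Rxrg had an N box at -140 in its first promoter and at 5 in its second. The second Rxrg promoter also held AGGTCA, at -88. RefSeq promoters were matched for 35 of the 38 genes, 55 promoters in all. Of these, 23 held CACGNG and 20 held CACNAG, and over all 32851 RefSeq promoters of the same length the shares were 27.5% and 42.5%. The glucocorticoid receptor palindrome was in 0 of the 55 and in 0.475% of all, its half-site AGAACA in 5 of the 55 and in 19% of all, and the nuclear receptor half-site AGGTCA in 9 of the 55 and in 16.3% of all. Each motif was searched on both strands, and a match is only a match of letters.

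Signals are on a log2 scale, with the 75th percentile of each array set to 0, and a difference of 1 between groups is a 2-fold difference. A level of one gene is not set against that of another, since each probe has its own brightness. Differences come from limma fitted to all 12 arrays, with a standard error (SE) and a p-value adjusted over all 18788 features tested by the Benjamini-Hochberg method, and a gene is said to have risen, fallen or differed where that adjusted p was under 0.05. The 75th percentile signal ran from 897 to 1614 units, and 62.2% to 72.3% of probes were well above background on an array. Of the hepatocyte markers, 9 of 9 on the array were above background on all 12 arrays. Hes1 read -3.08, -3.02 and -3.85 in HESKOL dexamethasone livers, -2.46, -2.40 and -3.09 in HESKOL untreated livers, -1.16, -2.57 and -2.92 in wild-type dexamethasone livers and -1.49, -1.22 and -1.90 in wild-type untreated livers. HESKOL livers lay below wild-type livers in both states without overlap, but the differences of -1.10 after dexamethasone (SE 0.43, adjusted p = 0.249) and -1.12 without it (SE 0.43, adjusted p near 1) did not pass, and whether the probe lies in a deleted part is not given. The glucocorticoid receptor gene itself, Nr3c1, passed in no comparison. With 3 arrays in a group, precision is limited by that number.

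The arrays lay on 3 slides of 4 arrays, each slide with a single scan time. HESKOL untreated replicate 1 shared a slide with all wild-type untreated livers, and its replicates 2 and 3 shared another with replicates 1 and 2 of the wild-type dexamethasone group. All HESKOL dexamethasone livers were on the remaining slide, where replicate 3 of the wild-type dexamethasone group also lay. No slide held treated and untreated livers of 1 genotype, so a dexamethasone effect within a slide could not be computed, and each genotype comparison had 1 slide with both groups on it. With slide as a fixed block no receptor gene passed in any of the 7 comparisons, and blocked values are given beside each call. In that fit 0.0213% of all features tested passed between genotypes after dexamethasone and on average over treatment states, and 0% in each other comparison. Over the 30 tested receptor genes, wild-type dexamethasone replicate 1 stood farthest from the rest of its group. Its root mean square deviation from them was 1.38 log2 units, while the other 11 arrays gave 0.422 to 1.03, and 9 receptor genes lay over 1 log2 unit from their mean there. Counts are also given without that array. It was picked by the values of these same genes, so what passes without it is a description and no support. Wild-type dexamethasone replicate 3 came next (1.03, 8 receptor genes). Without replicate 3 instead, 0 of 31 receptor genes tested passed in wild-type liver (0.0635% of all features tested), 3 in HESKOL liver (9.91%) and 1 on average (6.84%).

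Of the 38 receptor genes, 29 were well above background on all 12 arrays. Vdr was above background on 8 arrays, all 3 of each treated group and 1 of 3 in each untreated group, so it entered the tests only through the treated livers. Ppard, the receptor for fatty acids that acts in muscle and many other tissues, was above background on 2 of 3 arrays in each of the 4 groups and was not tested. Never above background were Esr2, the second estrogen receptor, the progesterone receptor Pgr, Nr2e1 and Nr2e3, which act in brain and retina, and Nr4a3, of the immediate early NR4A group. Nr2f1 and Rorb, known mainly from the nervous system, were each above background on 1 array in the brightest probe.

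Receptor genes past the threshold with dexamethasone are counted here beside the share of all features tested. In HESKOL liver 2 of the 30 tested rose, Esr1 and Nr2c1, and 0 fell, with 10 at an unadjusted p under 0.05 (24.6% of all features tested). The share of members called was 6.67%, and over all features tested in that comparison it was 7.81% (3.62% higher and 4.19% lower). In wild-type liver 0 of 30 passed in limma, with 7 at an unadjusted p under 0.05, where 0.208% of all features tested passed (0.17% higher and 0.0373% lower) and 11.8% had an unadjusted p under 0.05. The difference between the 2 dexamethasone effects passed for 0 of 30, with 2 at an unadjusted p under 0.05, where 0.016% of all features tested passed (0.0106% higher and 0.00532% lower) and 6.62% had an unadjusted p under 0.05. Averaged over both genotypes, 6 receptor genes passed with dexamethasone, 3 of them higher (Esr1, Rora and Vdr) and 3 lower (Rxrg, Nr2f2 and Nr2f6), where 11.8% of all features tested passed (5.31% higher and 6.49% lower). Vdr entered the tests only through the treated livers, in which it is high. Among features well above background on all 12 arrays, which leaves Vdr out, 5 of 29 receptor genes passed on average, and 13.1% of all 16253 such features did. In the average effect over all features tested, 12 of the 30 receptor genes, Vdr among them, had an unadjusted p under 0.05, and 28.4% of all features did.

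**Figure D1:**
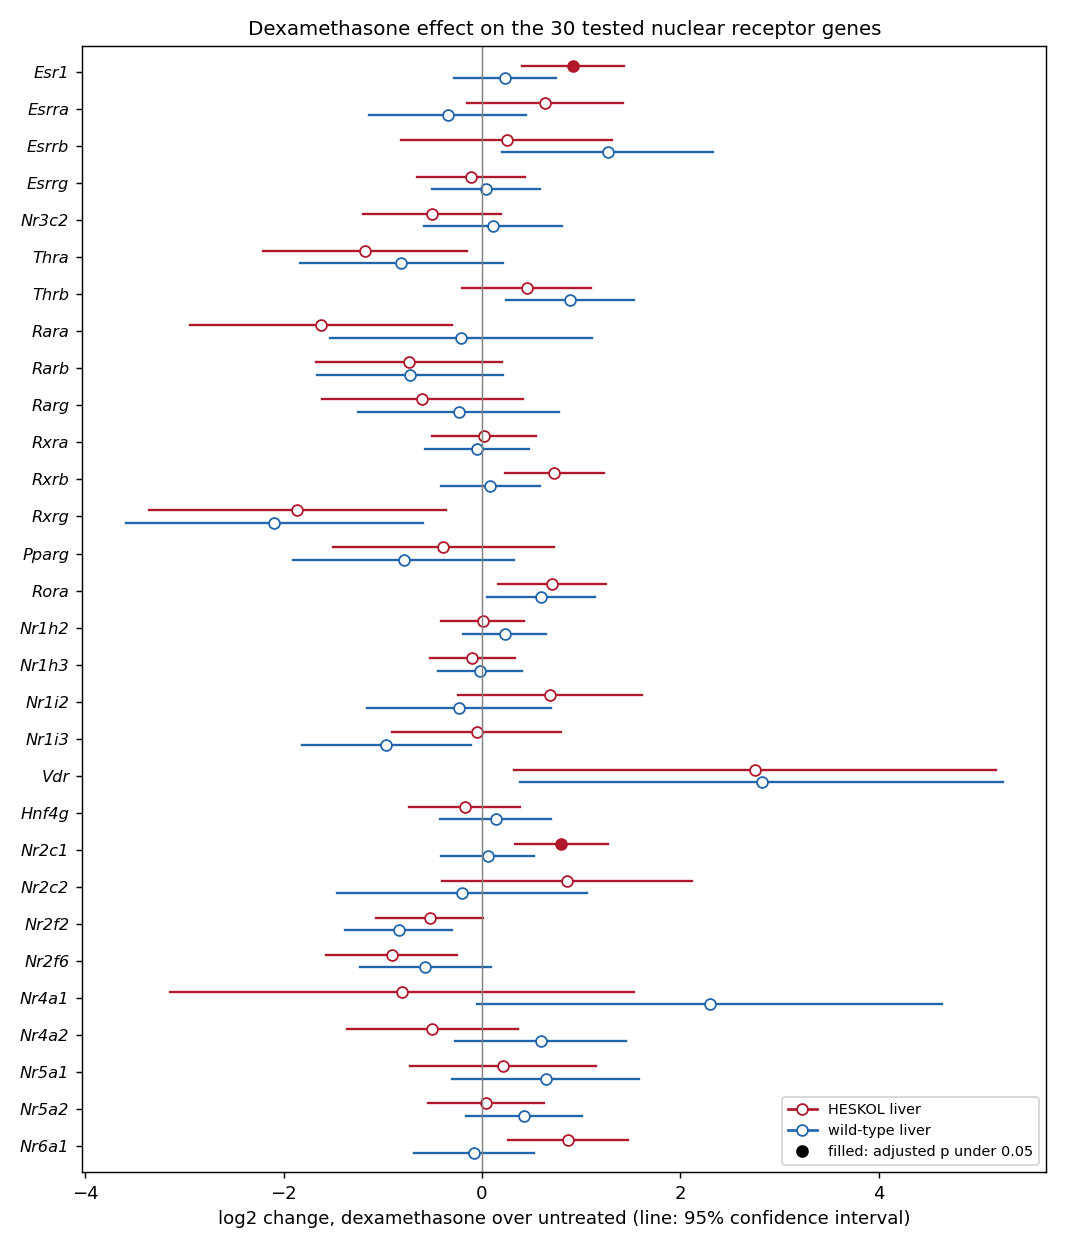
Log2 change with dexamethasone over untreated (horizontal axis, with its 95% confidence interval) for the 30 tested receptor genes, in HESKOL liver (red) and in wild-type liver (blue); filled points passed the threshold. Filled points are Esr1 (0.92) and Nr2c1 (0.80) in HESKOL liver, and the widest intervals belong to Vdr and Nr4a1.

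Estimates of the receptor genes had both signs. In HESKOL liver 15 of the 30 changes were positive and 15 negative, with a median of -0.02, and the groups of arrays did not overlap for 11 (6 higher and 5 lower), where 34.3% of all features tested did not overlap (15.6% higher and 18.7% lower). The median size of the change, without its sign, was 0.62 for the receptor genes and 0.40 for all features tested. In wild-type liver the changes were also 15 positive and 15 negative with a median of 0.01, the groups did not overlap for 5 (3 higher and 2 lower), where 12.1% of all features tested did not overlap (6.1% higher and 5.97% lower), and the median size was 0.39 against 0.28 for all. Without wild-type dexamethasone replicate 1, 3 receptor genes rose (Esr1, Rxrb and Nr2c1) and 1 fell (Rxrg) in HESKOL liver, where 14.9% of all features tested in that fit passed. There 4 fell in wild-type liver (Rxrg, Pparg, Nr1i3 and Nr2f2), where 6.07% of all passed, and in the average effect 5 rose (Esr1, Thrb, Rxrb, Rora and Nr2c1) and 6 fell (Thra, Rxrg, Pparg, Nr1i3, Nr2f2 and Nr2f6), where 23% of all passed.

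Between genotypes 1 receptor gene passed, after dexamethasone and in the average over treatment states. It did not pass with slide as a fixed block, where 0.0213% of all features tested passed in each of these comparisons. After dexamethasone, Esr1 was higher in HESKOL than in wild-type liver, 1 of 30 tested, where 1.04% of all features tested passed (0.644% higher and 0.394% lower), and 7 had an unadjusted p under 0.05, where 15.7% of all did. Without treatment 0 of 30 passed in limma and 1, again Esr1, had an unadjusted p under 0.05, where 0% of all features tested passed and 1.59% had an unadjusted p under 0.05. Averaged over both treatment states, the 1 receptor gene that passed was Esr1, where 0.25% of all features tested passed (0.144% higher and 0.106% lower), and 2 had an unadjusted p under 0.05, where 10.1% of all did. The groups did not overlap for 6 receptor genes after dexamethasone (4 higher and 2 lower), where 18.2% of all features tested did not overlap (10.5% higher and 7.66% lower), and for 1, which was higher, without treatment, where the share was 6.36% (4.17% higher and 2.19% lower). The median size of the genotype difference was 0.35 after dexamethasone (0.32 for all features tested) and 0.13 without treatment (0.15 for all).

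**Figure D2:**
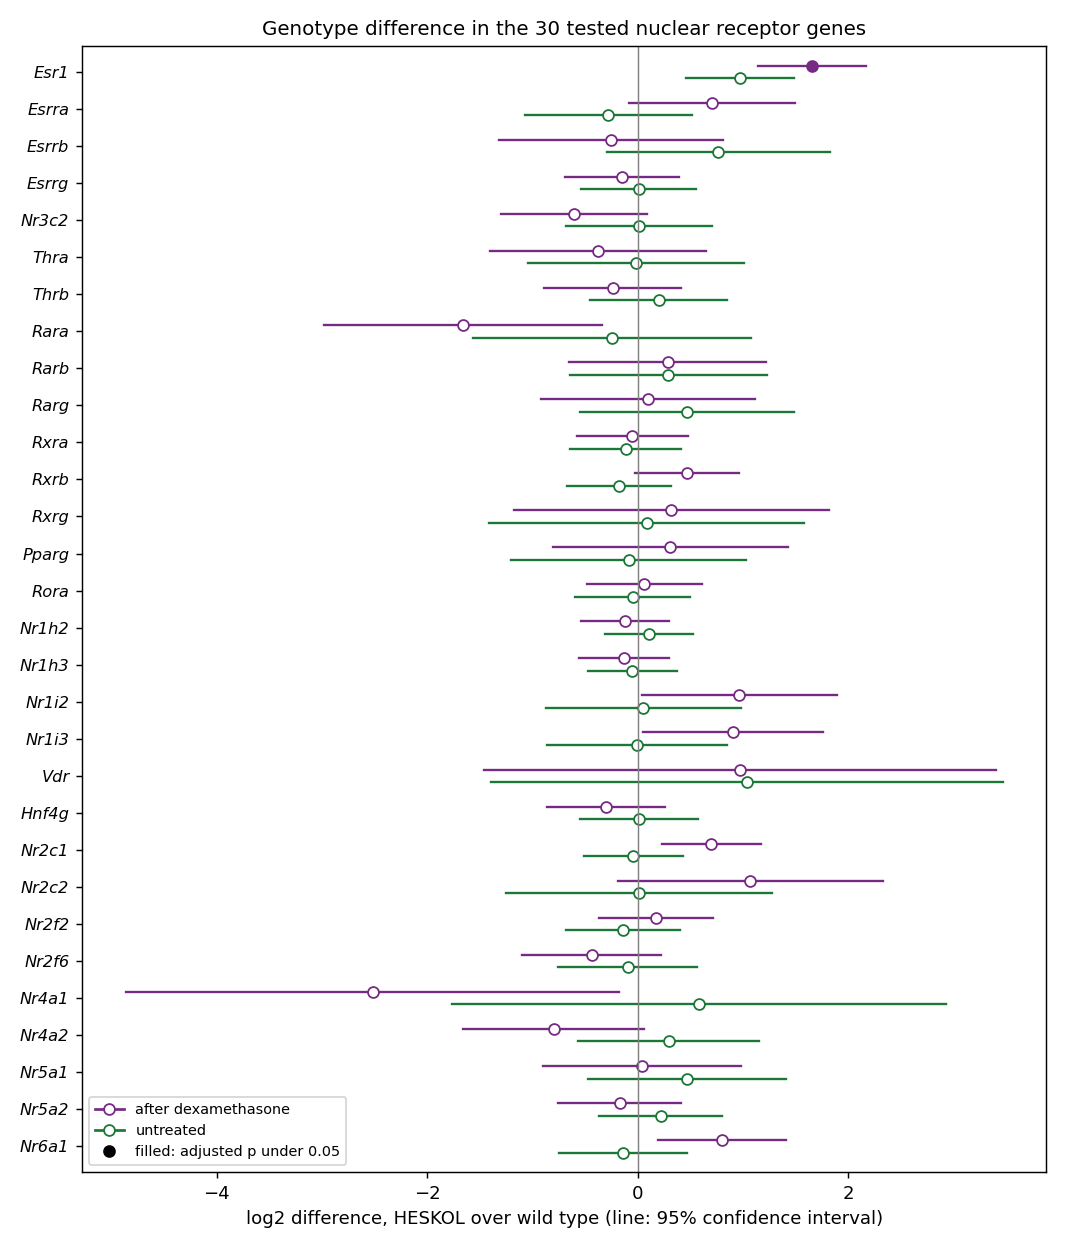
Log2 difference of HESKOL over wild-type liver (horizontal axis, with its 95% confidence interval) for the 30 tested receptor genes, after dexamethasone (purple) and without treatment (green); the filled point passed the threshold. Esr1 after dexamethasone (1.65) is the filled point, and without treatment the points lie near 0 for most genes.

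Esr1 encodes estrogen receptor alpha, the main estrogen receptor of liver, which acts on lipid metabolism and on sex-dependent genes. Its signal was 2.09, 2.53 and 2.31 in HESKOL dexamethasone livers, against 1.31, 1.35 and 1.52 in HESKOL untreated livers. The wild-type readings were 0.45, 0.70 and 0.82 in dexamethasone livers, against 0.36, 0.07 and 0.84 in untreated livers. All 6 HESKOL livers therefore lay above all 6 wild-type livers, and within HESKOL all 3 treated livers lay above the 3 untreated ones, whereas the wild-type groups overlapped. In bulk liver RNA, more cells of a type and more RNA per cell cannot be told apart, here or in the results that follow. After dexamethasone HESKOL exceeded wild-type liver by 1.65 (SE 0.23, 3.14-fold, adjusted p = 0.0111), and over both treatment states by 1.31 (SE 0.16, 2.48-fold, adjusted p = 0.00859). Without treatment the difference was 0.97 (SE 0.23, unadjusted p = 0.00156, adjusted p near 1).

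With dexamethasone Esr1 rose in HESKOL liver by 0.92 (SE 0.23, 1.89-fold, adjusted p = 0.0377) and in the average over genotypes by 0.58 (SE 0.16, adjusted p = 0.0452), and its change in wild-type liver was 0.23 (SE 0.23, adjusted p = 0.747). The difference between the 2 effects, 0.68 (SE 0.33, adjusted p = 0.763), did not pass. The genotype difference was 1.49 after dexamethasone within the slide that held both groups (3 HESKOL livers and 1 wild-type liver; adjusted p = 0.1995 with slide as a fixed block) and 0.88 without treatment within its slide (1 HESKOL liver and 3 wild-type livers), and blocked its average was 1.19 (SE 0.25, adjusted p = 0.316). Blocked dexamethasone effects were 0.63 (SE 0.47) in HESKOL liver and 0.33 (SE 0.39) on average. The average genotype call held without each of the 12 arrays in turn (1.22 to 1.41), and the call after dexamethasone held without each of 11 and was lost without HESKOL dexamethasone replicate 2 (1.54, adjusted p = 0.068). The dexamethasone call in HESKOL liver held without wild-type untreated replicate 2 or 3 or wild-type dexamethasone replicate 1 or 3 (0.92 each) and was lost without any of the other 8 arrays (0.81 to 1.03). The average dexamethasone call held only without wild-type untreated replicate 3 (0.68) or wild-type dexamethasone replicate 1 (0.63), of the 12 arrays.

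Both Esr1 probes were above background on all 12 arrays. The one used lies at chr10:5343241-5343300 and the dimmer one at chr10:5345231-5345290, on the mm7 build of the array design. The dimmer probe read -2.12, -2.94 and -2.52 in HESKOL dexamethasone livers, against -4.10, -3.38 and -2.98 in wild-type dexamethasone livers, and these groups did not overlap. Untreated it read -3.15, -2.83 and -4.33 in HESKOL livers, against -3.76, -3.66 and -4.44 in wild-type livers, and those groups overlapped. Its genotype difference after dexamethasone was 0.96 (adjusted p = 0.322, over all probes tested), smaller than that of the brighter probe and not past the threshold.

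**Figure D3:**
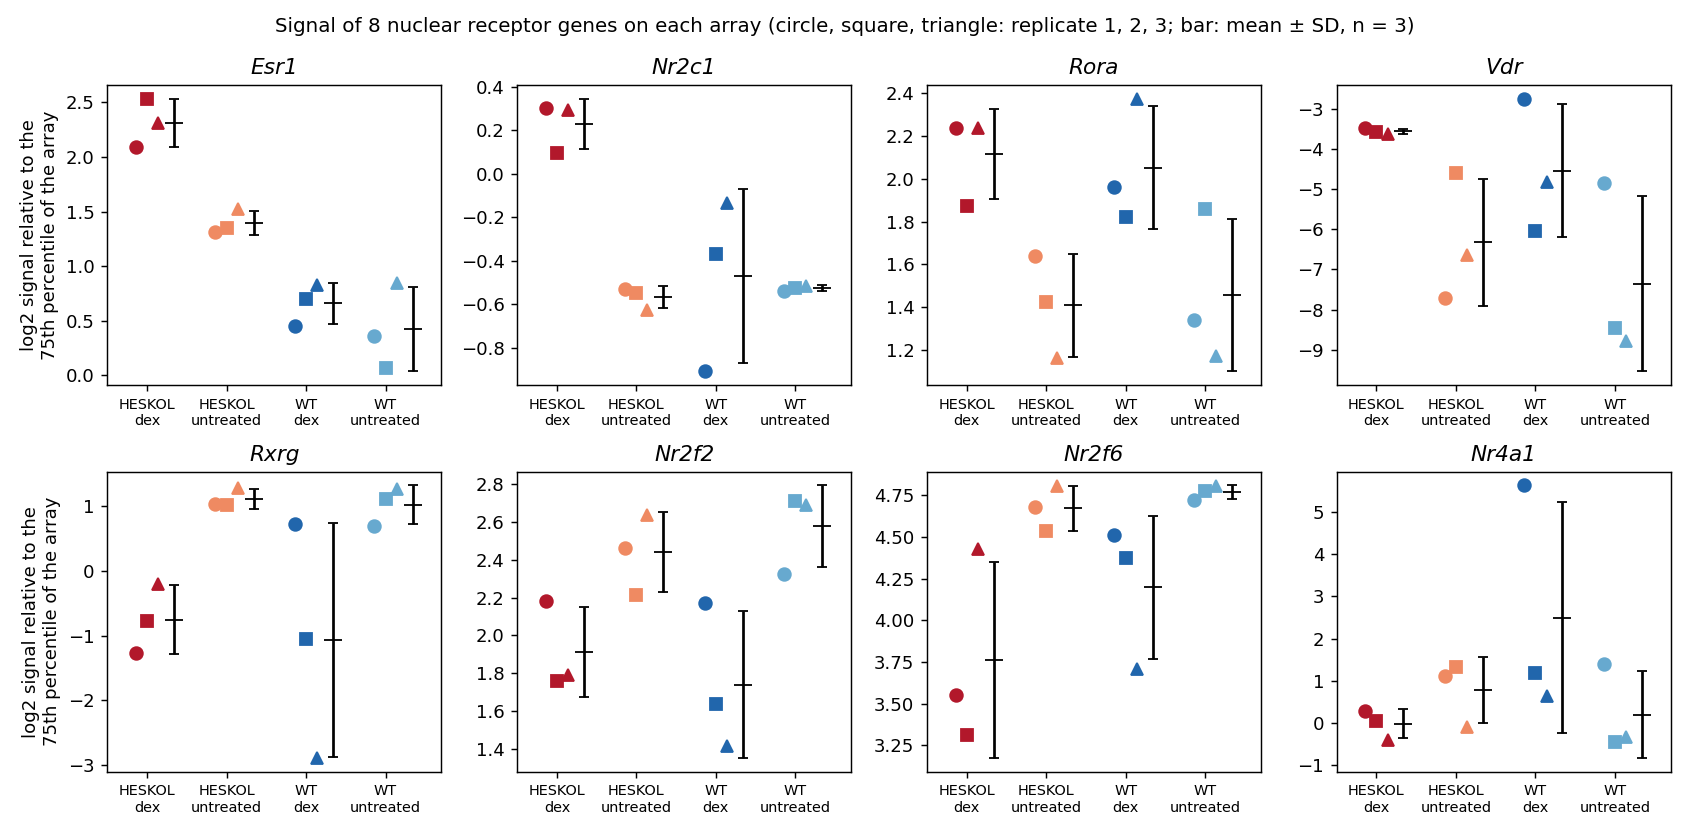
Signal of 8 receptor genes on each array (vertical axis, log2 relative to the 75th percentile of the array), with replicates 1, 2 and 3 as circle, square and triangle and the mean ± SD of each group (n = 3). Esr1 separates the genotypes, Rxrg, Nr2f2 and Nr2f6 lie lower in most treated livers, and Nr4a1 reaches 5.64 in wild-type dexamethasone replicate 1 alone.

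The remaining steroid receptor genes did not change past the threshold. Nr3c2, the mineralocorticoid receptor, which also binds glucocorticoids, read -5.15, -5.13 and -4.65 in HESKOL dexamethasone livers, against -4.39, -4.66 and -4.37 in HESKOL untreated livers. Wild-type livers read -3.78, -4.18 and -5.17 with dexamethasone, against -4.61, -4.50 and -4.35 without it. Its change was -0.50 (SE 0.32) in HESKOL and 0.11 (SE 0.32) in wild-type liver, with overlapping groups in both.

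The estrogen-related receptors drive mitochondrial and energy genes without a known natural hormone. Esrra, the one most tied to mitochondrial biogenesis, read 2.69, 3.14 and 3.77 in HESKOL dexamethasone livers, against 2.57, 1.98 and 3.15 in HESKOL untreated livers, and 2.29, 2.96 and 2.24 in wild-type dexamethasone livers, against 2.53, 2.98 and 3.01 in wild-type untreated livers. Groups overlapped in each pair (0.64, SE 0.36, in HESKOL; -0.35, SE 0.36, in wild-type liver). Esrrb, known from stem cells and the inner ear, read -1.95, -3.59 and -3.74 in wild-type dexamethasone livers, against -4.37, -3.90 and -4.82 in wild-type untreated livers. These groups did not overlap, yet the change of 1.27 (SE 0.48, adjusted p = 0.345) did not pass and was 0.70 without wild-type dexamethasone replicate 1, the highest array. In HESKOL mice Esrrb read -3.09, -3.50 and -3.45 in dexamethasone livers, against -3.22, -3.16 and -4.41 in untreated livers, which overlapped. Esrrg ran from -2.62 to -1.73 over the 12 arrays with changes of -0.11 in HESKOL and 0.04 in wild-type liver (SE 0.25 each).

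Among partners of the heterodimeric receptors, 1 of the 3 retinoid X receptor genes passed, Rxrg. Rxrg, the isoform best known from muscle and brain, read -1.27, -0.78 and -0.20 in HESKOL dexamethasone livers, against 1.04, 1.01 and 1.28 in HESKOL untreated livers. Wild-type values were 0.72, -1.04 and -2.89 in dexamethasone livers, against 0.69, 1.11 and 1.27 in untreated livers. All HESKOL treated livers lay below the untreated ones, and in wild-type mice treated replicate 1 lay among the untreated livers. Averaged over genotypes Rxrg fell by 1.98 on the log2 scale (SE 0.48, 3.94-fold, adjusted p = 0.0263). The change was -1.86 (SE 0.68, adjusted p = 0.118) in HESKOL and -2.09 (SE 0.68, adjusted p = 0.27) in wild-type liver.

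Without wild-type dexamethasone replicate 1 Rxrg fell by 2.43 on average (adjusted p = 0.00101), by 1.86 in HESKOL liver (adjusted p = 0.019) and by 2.99 in wild-type liver (adjusted p = 0.0099). Of the 12 arrays, leaving out that one, wild-type dexamethasone replicate 3 (-1.52), wild-type untreated replicate 1 (-2.06) or HESKOL dexamethasone replicate 3 (-2.12) kept the average call, and leaving out any of the other 8 lost it (-2.003 to -1.85, adjusted p from 0.0501 to 0.0577). With slide as a fixed block the average change was -0.23 (SE 0.71) and that in HESKOL liver was 0.83 (SE 0.84), of the opposite sign, and the average was -2.05 (adjusted p = 0.0135) with slide as a random block. The probe lies at chr1:167616274-167616333 on mm7 and is the only one of the gene.

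Rxrb, which is found in most tissues, read 2.21, 2.09 and 2.58 in HESKOL dexamethasone livers, against 1.86, 1.27 and 1.55 in HESKOL untreated livers. These did not overlap, and the change of 0.73 (SE 0.23, adjusted p = 0.0722) missed the threshold. It passed without wild-type dexamethasone replicate 1 (adjusted p = 0.0375) and with slide as a random block (0.75, adjusted p = 0.0416). In wild-type mice Rxrb read 1.53, 2.03 and 1.91 in dexamethasone livers, against 1.67, 1.76 and 1.78 in untreated livers, a change of 0.08 (SE 0.23). Rxra, the main isoform of liver, lay between 5.43 and 6.28 on all 12 arrays. Its change was 0.02 in HESKOL liver, with a 95% confidence interval from -0.51 to 0.54, and -0.05 in wild-type liver, with an interval from -0.57 to 0.48.

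The thyroid hormone receptor genes had estimates of opposite sign, and neither passed. Thrb, the main receptor of liver for thyroid hormone, read 0.45, 1.13 and 0.96 in HESKOL dexamethasone livers, against 0.53, 0.08 and 0.58 in HESKOL untreated livers. In wild-type mice it read 0.77, 1.47 and 1.02 in dexamethasone livers, against -0.15, 0.04 and 0.70 in untreated livers, and these groups did not overlap. The average change was 0.67 (SE 0.21, adjusted p = 0.0607), and it passed without wild-type dexamethasone replicate 1 (0.75, adjusted p = 0.0302) and with slide as a random block (0.66, adjusted p = 0.0377). Thra, the isoform of heart, bone and brain, read -0.64, 0.04 and 0.61 in HESKOL dexamethasone livers, against 1.06, 0.82 and 1.66 in HESKOL untreated livers, without overlap. Wild-type livers read 1.16, 0.49 and -0.49 with dexamethasone, against 0.69, 1.06 and 1.84 without it, and overlapped. Its average change was -0.99 (SE 0.33, adjusted p = 0.0751), which passed without wild-type dexamethasone replicate 1 (-1.19, adjusted p = 0.0232) and with slide as a random block (-1.02, adjusted p = 0.043). With slide as a fixed block the average changes were 0.87 for Thrb and -0.24 for Thra (adjusted p = 0.987 and 0.989).

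The retinoic acid receptor genes all had negative estimates with dexamethasone and none passed. Rara, the most widespread of them, read -4.54, -6.12 and -5.40 in HESKOL dexamethasone livers, against -3.39, -2.81 and -4.98 in HESKOL untreated livers. Wild-type livers read -3.67, -3.29 and -4.11 with dexamethasone, against -3.12, -2.86 and -4.47 without it. Treated HESKOL livers lay below treated wild-type livers without overlap (-1.66, SE 0.60, adjusted p = 0.215), while the dexamethasone groups overlapped within each genotype. Rarb, which is itself a classical retinoic acid target, read -0.91, -0.47 and -0.77 in HESKOL dexamethasone livers, against 0.23, 0.19 and -0.36 in HESKOL untreated livers, without overlap. The wild-type readings were -0.44, -0.62 and -1.94 in dexamethasone livers, against -0.53, 0.52 and -0.81 in untreated livers, and its average change was -0.73 (SE 0.30, adjusted p = 0.137). Rarg, the isoform of skin, ran from -4.65 to -2.54 over the 12 arrays with changes of -0.60 in HESKOL and -0.23 in wild-type liver (SE 0.46 each).

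Vdr, the vitamin D receptor, is low in hepatocytes and known from intestine, kidney and the non-parenchymal cells of liver. It read -3.49, -3.58 and -3.63 in HESKOL dexamethasone livers, against -7.72, -4.60 and -6.65 in HESKOL untreated livers. Wild-type values were -2.75, -6.04 and -4.83 in dexamethasone livers, against -4.85, -8.45 and -8.78 in untreated livers. The treated HESKOL values were tight and above all untreated ones, the untreated values spread over more than 3 log2 units, and 1 of 3 arrays of each untreated group was well above background. Averaged over genotypes the difference was 2.79 (SE 0.78, adjusted p = 0.0425). Because Vdr passed the background filter through the treated groups alone, this p is no support for a difference, and the values are a description.

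The size of this Vdr difference depended on the background step, since it was 1.11 (adjusted p = 0.104) after normexp correction of the raw signals, and 1.69 (SE 1.79) with slide as a fixed block. Of the 12 arrays, its adjusted p stayed under 0.05 without wild-type untreated replicate 1 (3.41), wild-type dexamethasone replicate 2 (3.16) or HESKOL untreated replicate 2 (3.22). It did not without any of the other 9 (2.34 to 2.86). Being the same comparison of the same gene, these refits are no support for a difference either. Sums of 2 further marker lists had their highest array of each group where Vdr had its own. That was replicate 1 in the HESKOL dexamethasone and both wild-type groups and replicate 2 in HESKOL untreated livers. The 2 lists are named for this match, and the other marker lists did not match in every group. In HESKOL dexamethasone livers Vdr ran only from -3.63 to -3.49, so its highest array says little there. The summed signal of 7 bile duct markers, 6 of them above background on every array and Cftr on none, was 21.2, 14.9 and 6.37 times the 75th percentile signal in HESKOL dexamethasone livers, against 20.1, 95.2 and 30.3 in HESKOL untreated livers, and 54.3, 18.4 and 13.6 in wild-type dexamethasone livers, against 72.5, 15.8 and 15.2 in wild-type untreated livers. That of 6 neutrophil markers, 5 of them above background on every array, was 35.8, 34.3 and 2.23 in HESKOL dexamethasone livers, against 9.34, 253 and 166 in HESKOL untreated livers, and 165, 54.9 and 18.6 in wild-type dexamethasone livers, against 337, 15.4 and 14.9 in wild-type untreated livers. Between treated and untreated livers 1 of 6 tested bile duct markers was called in HESKOL liver, lower, and 0 in wild-type liver, and 0 of 6 neutrophil markers in either, with medians of -2.51 in HESKOL and 0.01 in wild-type liver. Spp1 is both in the bile duct list and among the listed vitamin D receptor targets. The part of bile duct cells and neutrophils in the Vdr values was not tested.

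The 1 probe of Vdr lies at chr15:97858813-97858872 on mm7.

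The liver X receptors, which sense oxysterols and drive lipogenic and sterol efflux genes, had no call in any comparison. Nr1h3, the form enriched in liver, lay between 4.23 and 4.76 on all 12 arrays, and its change was -0.10 in HESKOL liver (95% interval -0.52 to 0.33) and -0.02 in wild-type liver (-0.44 to 0.41). Nr1h2, the widespread form, lay between 1.24 and 1.71, and its change was 0.01 in HESKOL liver (-0.41 to 0.43) and 0.23 in wild-type liver (-0.19 to 0.65). Genotype differences of both genes were between -0.13 and 0.10. Their SE for a change within 1 genotype, 0.19, was the lowest of the 30 receptor genes tested.

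The xenobiotic receptors switch on drug-metabolizing enzymes and transporters. Nr1i3, the constitutive androstane receptor (CAR), read 2.42, 2.81 and 3.28 in HESKOL dexamethasone livers, against 3.16, 2.55 and 2.96 in HESKOL untreated livers, and 2.79, 1.74 and 1.27 in wild-type dexamethasone livers, against 2.42, 3.12 and 3.16 in wild-type untreated livers. Its change was -0.05 (SE 0.39) in HESKOL and -0.96 (SE 0.39, adjusted p = 0.368) in wild-type liver. Without wild-type dexamethasone replicate 1, which lay among the untreated livers, Nr1i3 fell in wild-type liver by 1.39 (adjusted p = 0.0386), and the difference between the effects, 1.34 (SE 0.45, adjusted p = 0.413), did not pass. Nr1i2, the pregnane X receptor (PXR), read 2.36, 3.45 and 3.06 in HESKOL dexamethasone livers, against 2.11, 1.61 and 3.09 in HESKOL untreated livers, and 1.87, 2.43 and 1.67 in wild-type dexamethasone livers, against 1.73, 2.17 and 2.75 in wild-type untreated livers. Its groups overlapped in each pair, with changes of 0.69 in HESKOL and -0.23 in wild-type liver (SE 0.42 each).

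Pparg, the adipogenic fatty acid receptor, ran from -0.33 to 2.02, both extremes in wild-type dexamethasone livers. Its change was -0.39 in HESKOL and -0.79 in wild-type liver (SE 0.51 each), and neither passed. Without wild-type dexamethasone replicate 1, the array at 2.02, it fell in wild-type liver (change -1.497, SE 0.31, adjusted p = 0.0239) and on average (change -0.94, SE 0.21, adjusted p = 0.0105).

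Rora, a receptor of the circadian loop that activates clock and lipid genes, read 2.24, 1.87 and 2.24 in HESKOL dexamethasone livers, against 1.64, 1.42 and 1.16 in HESKOL untreated livers. In wild-type mice it read 1.96, 1.82 and 2.37 in dexamethasone livers, against 1.34, 1.86 and 1.17 in untreated livers. The HESKOL groups did not overlap, and in wild-type mice untreated replicate 2 lay among the treated livers. On average Rora rose by 0.65 (SE 0.18, 1.57-fold, adjusted p = 0.0369). All 3 probes of the gene, within chr9:69410920-69417473 on mm7, rose on average when tested one by one (0.65, 0.68 and 0.89, with adjusted p = 0.04, 0.0331 and 0.0316).

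With slide as a fixed block the average change of Rora was 0.56 (SE 0.38), closer to the unblocked value than for the other 5 genes called on average. Leaving out wild-type untreated replicate 2 (0.75), wild-type dexamethasone replicate 1 (0.67) or wild-type dexamethasone replicate 2 (0.71) kept the call, and leaving out any of the other 9 arrays lost it (0.57 to 0.71).

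The COUP transcription factors mostly repress genes and compete with other receptors for their sites. Nr2f2 (COUP-TFII), which is also a marker of venous and lymphatic endothelium, read 2.18, 1.76 and 1.79 in HESKOL dexamethasone livers, against 2.46, 2.22 and 2.64 in HESKOL untreated livers. The wild-type readings were 2.17, 1.64 and 1.41 in dexamethasone livers, against 2.33, 2.71 and 2.69 in untreated livers. Neither pair of groups overlapped, and on average Nr2f2 fell by 0.68 (SE 0.17, 1.61-fold, adjusted p = 0.0301). The other two probes of the gene gave -0.50 and -0.38, and neither passed.

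Nr2f6, an orphan receptor of the same group, read 3.55, 3.31 and 4.43 in HESKOL dexamethasone livers, against 4.68, 4.53 and 4.80 in HESKOL untreated livers. Wild-type values were 4.51, 4.37 and 3.71 in dexamethasone livers, against 4.72, 4.78 and 4.80 in untreated livers. Again neither pair overlapped, and on average Nr2f6 fell by 0.74 (SE 0.21, 1.67-fold, adjusted p = 0.0455). With slide as a fixed block the average changes were -0.33 (SE 0.39) for Nr2f2 and -0.24 (SE 0.46) for Nr2f6. Leaving out wild-type dexamethasone replicate 1 gave -0.79 (adjusted p = 0.00549) for Nr2f2 and -0.82 (adjusted p = 0.0229) for Nr2f6. Leaving out wild-type untreated replicate 1, HESKOL untreated replicate 2 or HESKOL dexamethasone replicate 1 also kept the Nr2f2 call (-0.75, -0.74 and -0.75), and any of the other 8 lost it (-0.68 to -0.60). HESKOL dexamethasone replicate 3 was the other array whose removal kept the Nr2f6 call (-0.91), and any of the other 10 lost it (-0.78 to -0.62).

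**Figure D4:**
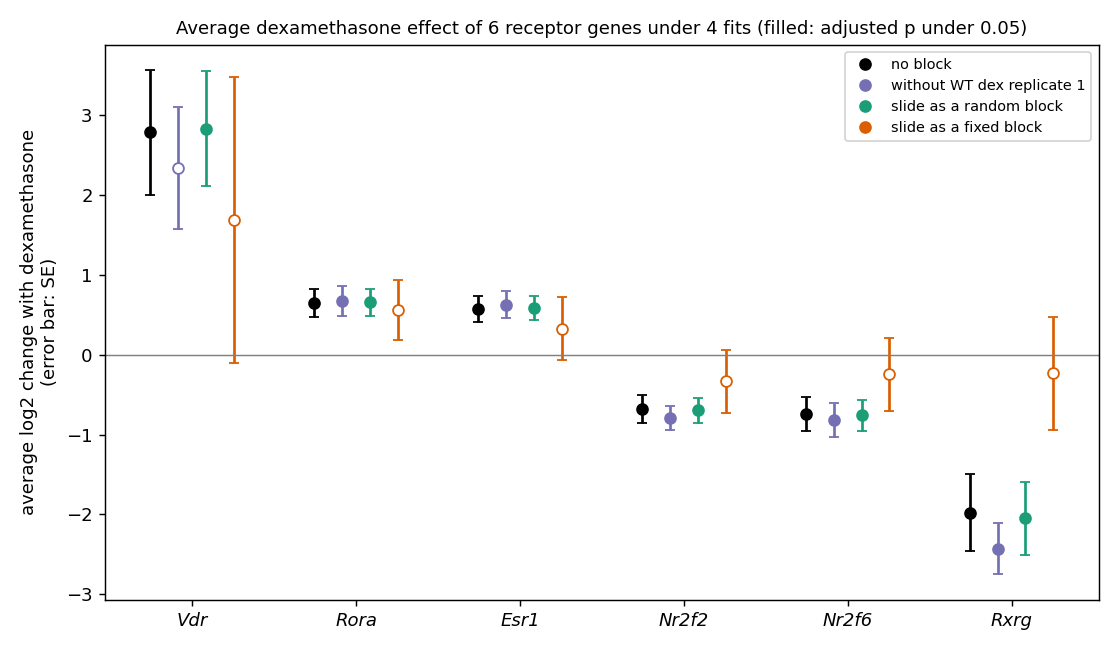
Average log2 change with dexamethasone over both genotypes (vertical axis, with its SE) of the 6 receptor genes called, in 4 fits, with filled points past the threshold. Values with slide as a fixed block lie nearer to 0 for all 6 genes, with Rxrg at -0.23. None passes there, where 0% of all features tested passed. Vdr, which passed the background filter through the treated groups alone, is shown as a description.

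Among the marker sums given here, those of Kupffer cells and lymphocytes were lower in treated than in untreated HESKOL livers without overlap. In wild-type liver each of these sums overlapped between treated and untreated mice. The part of other liver cell types in the changes of the receptor genes was not tested. The list of 10 Kupffer cell marker names holds Adgre1 and Emr1, which name the same gene, so that gene entered the sum under both names. All were above background on every array. Their summed signal was 88.3 to 216 times the 75th percentile signal in HESKOL dexamethasone livers, against 233 to 391 in HESKOL untreated livers. It was 120 to 275 in wild-type dexamethasone livers, against 164 to 341 in wild-type untreated livers, so only the HESKOL groups were apart. That of 9 lymphocyte markers, 6 of them above background on every array, was 0.59 to 1.17 in HESKOL dexamethasone livers, against 2.12 to 3.47 in HESKOL untreated livers, and 0.478 to 2.2 in wild-type dexamethasone livers, against 1.37 to 3.48 in wild-type untreated livers. The sum of 9 endothelial markers was 43 to 50.2 in HESKOL dexamethasone livers, against 42.7 to 47.9 in HESKOL untreated livers, and 43.4 to 44.8 in wild-type dexamethasone livers, against 32.2 to 48.7 in wild-type untreated livers. That of 9 stellate cell markers was 49.7 to 68.4 in HESKOL dexamethasone livers, against 33 to 56.6 in HESKOL untreated livers, and 42 to 48.8 in wild-type dexamethasone livers, against 40 to 47.4 in wild-type untreated livers. Endothelial and stellate sums overlapped between treated and untreated livers of both genotypes.

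Nr2c1 (TR2), an orphan receptor that represses genes of retinoid and erythroid pathways, read 0.30, 0.10 and 0.29 in HESKOL dexamethasone livers, against -0.53, -0.55 and -0.63 in HESKOL untreated livers. In wild-type mice it read -0.91, -0.37 and -0.13 in dexamethasone livers, against -0.54, -0.53 and -0.52 in untreated livers. The HESKOL groups were clearly apart and each tight, whereas treated wild-type livers lay on both sides of the untreated ones. In HESKOL liver Nr2c1 rose by 0.80 (SE 0.21, 1.74-fold, adjusted p = 0.0443), and its change in wild-type liver was 0.06 (SE 0.21). The difference between the effects was 0.74 (SE 0.30, unadjusted p = 0.0311, adjusted p = 0.687).

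With slide as a fixed block the change of Nr2c1 in HESKOL liver was 0.31 (SE 0.38), and with slide as a random block it was 0.84 (adjusted p = 0.022). The call held without wild-type dexamethasone replicate 1 or 3 (0.80 each) and was lost without any of the other 10 arrays (0.76 to 0.87). The other two probes gave 0.73 and 0.98 in HESKOL liver, and neither passed. Nr2c2 (TR4), its close relative, ran from -4.32 to -1.19 with changes of 0.86 in HESKOL and -0.20 in wild-type liver (SE 0.57 each).

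Nr4a1 and Nr4a2 are immediate early receptors, induced within an hour by many stimuli and not known to need a ligand. Nr4a1 (Nur77) read 0.27, 0.05 and -0.41 in HESKOL dexamethasone livers, against 1.12, 1.32 and -0.11 in HESKOL untreated livers. The wild-type readings were 5.64, 1.19 and 0.64 in dexamethasone livers, against 1.39, -0.46 and -0.34 in untreated livers. Treated replicate 1 thus stood more than 4 log2 units above the rest of its group. The change in wild-type liver was 2.29 (SE 1.07, adjusted p = 0.435), and 0.72 (SE 0.58) without that array. The difference between treated genotypes was -2.52 (SE 1.07, adjusted p = 0.282) with it and -0.95 without it.

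Nr4a2 read -5.10, -4.44 and -4.75 in HESKOL dexamethasone livers, against -3.80, -4.05 and -4.94 in HESKOL untreated livers, and -3.17, -4.73 and -3.99 in wild-type dexamethasone livers, against -4.59, -4.48 and -4.61 in wild-type untreated livers. Wild-type dexamethasone replicate 1 was again the highest of the 12 arrays. Its change was -0.50 in HESKOL and 0.59 in wild-type liver (SE 0.39 each), and without that array the wild-type change was 0.20.

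Nr6a1, a germ cell nuclear factor, read -1.37, -0.84 and -0.99 in HESKOL dexamethasone livers, against -1.93, -2.42 and -1.45 in HESKOL untreated livers. Wild-type values were -1.94, -1.64 and -2.02 in dexamethasone livers, against -2.09, -1.77 and -1.51 in untreated livers. Treated HESKOL livers lay above both the untreated HESKOL and the treated wild-type livers without overlap. Its change in HESKOL liver was 0.86 (SE 0.28, adjusted p = 0.0795), and the difference between the effects was 0.94 (SE 0.39, unadjusted p = 0.0336, adjusted p = 0.69), neither past the threshold.

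Hnf4g and the NR5A receptors stayed without a call. Hnf4g, a relative of the hepatocyte factor HNF4 alpha, lay between -5.59 and -4.70 on all 12 arrays, with a change of -0.18 in HESKOL and 0.14 in wild-type liver (SE 0.26 each). Nr5a2 (LRH-1), which acts on bile acid synthesis, lay between 1.19 and 2.22, with changes of 0.04 in HESKOL and 0.43 in wild-type liver (SE 0.27 each). Nr5a1 (SF-1), the steroidogenic factor of adrenal and gonad, ran from -4.59 to -3.16, with changes of 0.21 in HESKOL and 0.64 in wild-type liver (SE 0.43 each).

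Coregulators and listed targets of these receptors were counted beside them, 114 of 122 genes being tested. With dexamethasone in HESKOL liver 12 rose and 10 fell, and in wild-type liver 1 rose and 0 fell, while the shares over all features tested were 7.81% and 0.208%. Treated HESKOL livers had 4 of them higher and 2 lower than treated wild-type livers, where 1.04% of all features tested passed. Without treatment 0 of 114 passed, as did 0% of all, and the difference between the effects passed for 0, against 0.016% of all.

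Among 17 coactivators, 2 rose in HESKOL liver and 0 in wild-type liver, with medians of 0.30 and 0.22 (all features tested -0.002 and -0.02). Ppargc1a, the coactivator PGC-1 alpha that works with several of these receptors in fasting, read 2.87, 3.41 and 2.78 in HESKOL dexamethasone livers, against -0.66, -0.63 and 0.16 in HESKOL untreated livers. In wild-type mice it read -0.34, -0.13 and 0.57 in dexamethasone livers, against -1.19, -0.43 and -0.58 in untreated livers. It rose in HESKOL liver by 3.39 (SE 0.33, adjusted p = 0.000923) and was higher in HESKOL than in wild-type liver after dexamethasone by 2.98 (SE 0.33, adjusted p = 0.00291). Ncoa4 also rose in HESKOL liver (1.57, SE 0.30). Of 11 tested corepressors 1 rose there, Tbl1xr1, a subunit of the NCoR complex (1.40, SE 0.35), and the list median was 0.08.

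Listed targets of PPAR gamma and delta had the highest median, 2.16 in HESKOL and 0.54 in wild-type liver, and 5 of 10 tested rose in HESKOL liver and 0 in wild-type liver. They were the lipid droplet genes Cidec (5.68, SE 0.66), Plin4 (4.51, SE 0.54) and Cidea (2.41, SE 0.31), the fatty acid carrier gene Fabp4 (1.91, SE 0.39) and the pyruvate dehydrogenase kinase gene Pdk4. The receptor gene Pparg itself was not called in that comparison (-0.39). Of 6 adipocyte markers, 2 were above background on all 12 arrays and Lep on none. Among these markers, Fabp4 and Adipoq are also listed targets of PPAR gamma and delta. The summed signal of the 6 was 13.6 to 35.3 in HESKOL dexamethasone livers, against 5.45 to 7.73 in HESKOL untreated livers. It was 11.1 to 20.8 in wild-type dexamethasone livers, against 4.23 to 5.47 in wild-type untreated livers, and its part in the higher target signals was not tested.

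**Figure D5:**
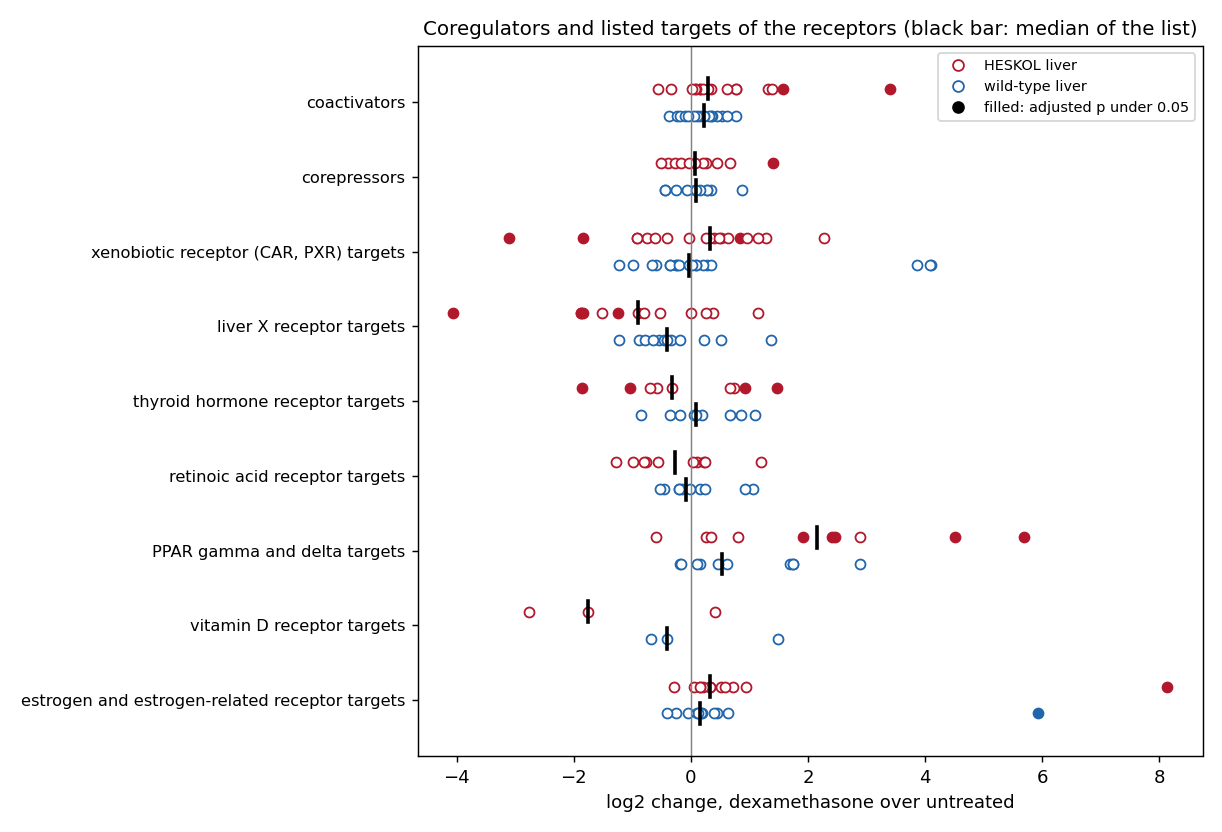
Log2 change with dexamethasone over untreated (horizontal axis) of each tested coregulator or listed target, for the lists described in the text, in HESKOL liver (red, upper row of a list) and wild-type liver (blue, lower row), with black bars at list medians and filled points past the threshold. PPAR gamma and delta targets have the highest median in HESKOL liver (2.16), and Sult1e1 (5.93) is the filled point in wild-type liver.

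Of 13 liver X receptor targets, 5 fell and 0 rose in HESKOL liver, where the median was -0.90, and 0 passed in wild-type liver, where it was -0.41. The lipogenic regulator gene Srebf1 read 2.63, 2.59 and 2.22 in HESKOL dexamethasone livers, against 6.48, 6.27 and 6.86 in HESKOL untreated livers, a drop of 4.06 log2 units (change -4.06, SE 0.69). Fatty acid synthase Fasn (-1.88, SE 0.40), Arl4c (-1.88, SE 0.37) and lipoprotein lipase Lpl (-1.85, SE 0.47) also fell, while in the average over genotypes the sterol efflux gene Abca1 (0.87, SE 0.21) and Mylip (0.83, SE 0.24) rose. Both receptor genes of this class were without a call.

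Of 19 listed CAR and PXR targets, 1 rose and 2 fell in HESKOL liver, and 0 passed in wild-type liver. Cyp2b10, the classical CAR target, read 3.68, 3.74 and 2.49 in HESKOL dexamethasone livers, against 1.69, 1.52 and -0.13 in HESKOL untreated livers. The wild-type readings were 1.08, 4.98 and 4.50 in dexamethasone livers, against -0.16, -0.41 and -1.17 in untreated livers. All treated livers lay above the untreated ones of their genotype, and Cyp2b10 rose on average by 3.19 (SE 0.63, adjusted p = 0.0119). The efflux pump gene Abcc2 rose in HESKOL liver (0.84, SE 0.20), whereas Cyp2c55 (-3.11, SE 0.45) and Abcb1a (-1.84, SE 0.46) fell. Slco1a4, a hepatic uptake carrier, was higher in HESKOL than in wild-type liver after dexamethasone by 2.82 (SE 0.37).

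Of 9 thyroid hormone receptor targets 2 rose in HESKOL liver, Klf9 (1.47, SE 0.27) and Cpt1a (0.93, SE 0.22), and 2 fell, the deiodinase gene Dio1 (-1.03, SE 0.27) and Acly (-1.86, SE 0.49). Klf9 is also a known glucocorticoid receptor target. Of 12 tested genes listed under estrogen and estrogen-related receptors 1 rose in each genotype, the estrogen sulfotransferase gene Sult1e1. It rose by 8.13 (SE 0.87) in HESKOL and 5.93 (SE 0.87) in wild-type liver. Its place in the list does not show that these receptors acted on it, and whether they did was not tested. Of 10 retinoic acid receptor targets and 3 vitamin D receptor targets 0 passed in either genotype, with medians of -0.26 and -1.76 in HESKOL liver.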

How the data were processed

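Array intensity values were used. Feature Extraction 9.5.3.1 and a design on mouse build mm7 are named per the file headers (the submitters' processing notes give version 9.5), and the deposited processed signal is an intensity from which background had been removed. The deposited series table equals it. There were 45018 spots on each array, 1639 of them controls. Here log2 signals were centred on the 75th percentile of non-control spots, outlier spots left out, saturated ones kept and spots of a probe averaged. The brightest probe stood for a gene, and it was tested where 1 group or more had it well above background on each of 3 arrays. Group means were fitted with limma 3.58.1 in R 4.3.3 (lmFit and eBayes, 8 residual and 3.13 prior degrees of freedom), for 7 contrasts, with Benjamini-Hochberg adjustment over all features tested and a threshold of 0.05, and the fit was tested on simulated data. Promoters are from RefSeq.

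Replicates are separate mice, per the design. The members and gene lists were chosen with earlier results of these data known, so no count over them is independent support. Values in every array are given for receptor genes called in any contrast or among the 12 smallest p of the average dexamethasone effect or of the difference between the effects. For lists, up to 4 called genes of a contrast were named by smallest p, and Pdk4 was named besides these after its value was seen. The replicate numbers of the labels did not pair the arrays: correlations of deviations between same-numbered arrays ran from -0.40 to 0.62, with 6 of 18 over 0.1. The result of 1 listed target gene is not reported here.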

Additional observations from a re-analysis of the deposited data

Results flagged for a closer look

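Receptor genes left untested gave single arrays above background, outside the main measurement, each with untreated wild-type livers as the control. The Nr2f1 probe read -5.92 in HESKOL dexamethasone replicate 3, against -7.81 in the highest untreated wild-type liver. The brightest Rorb probe read -4.18 in wild-type dexamethasone replicate 1, against -8.10. The other two Rorb probes read -6.56 in HESKOL dexamethasone replicate 3, against -7.95, and -6.20 in HESKOL untreated replicate 3, against -8.17. The 3 Rorb probes were therefore above background on 3 different arrays, 1 probe on each, and none had a second array.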

How the results depend on the processing

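The numbers of receptor genes called with dexamethasone in HESKOL liver, in wild-type liver and averaged over genotypes were 2, 0 and 6, and between genotypes after dexamethasone, without treatment and on average 1, 0 and 1. The average genotype count was 1 in each alternative run except slide as a fixed block, which gave 0 (0.0213% of all features tested passed). That of the difference between effects was 0 in each. With dexamethasone in HESKOL liver the count was 1 after median scaling (7.13% of all features tested passed) and on the unscaled deposited values (Nr6a1, 5.83%). Without a filter it was also 1 (Esr2, below background on all arrays, 3.42%). It was 0 after normexp correction (3.74%) and with slide as a fixed block (0%). At an adjusted p under 0.01 (1.4%) and at a log2 change of at least 1 (6.74%) it was also 0. The count was 4 with slide as a random block (12.8%) and with the groups fitted alone (11.5%), and 11 with array weights (27.1%). The average dexamethasone count was 4 on the deposited values (13.5% of all), 3 after normexp correction (6.82%) and 1 without a filter (5.24%). It was 0 with slide as a fixed block (0%) and at 0.01 (2.4%), and 2 at a log2 change of at least 1 (6.4%). It was 8 with slide as a random block (16.9%) and 14 with array weights (34%), which gave wild-type dexamethasone replicate 1 the lowest weight (0.223). Array weights also gave 5 in wild-type liver (11.8% of all) and 1 without treatment (Esr1, 0.218%). After dexamethasone the genotype count was 2 on the deposited values (2.06% of all) and 0 with slide as a fixed block (0.0213%). At 0.01 (0.16%) and with the groups fitted alone (0.0426%) it was also 0. Leaving out 1 array at a time gave 0 to 4 in HESKOL liver, 0 to 4 in wild-type liver, 0 to 11 on average, 0 to 1 after dexamethasone, 0 without treatment and 1 for the average genotype effect. The matching shares of all features tested ran from 1.96% to 14.9%, from 0.0635% to 6.07% and from 5.69% to 23% for dexamethasone. Between genotypes they ran from 0.18% to 2.41%, from 0% to 0.00531% and from 0.0835% to 0.583%. A fit with the replicate number as a block was also run, although a pairing by that number was not established. The counts were 1 in HESKOL liver (7.97% of all), 0 in wild-type liver (0.192%) and 4 on average (12%). Between genotypes they were 0 without treatment (0%), 1 after dexamethasone (0.697%) and 1 on average (0.122%). None of the 10 called changes turned its sign in the alternatives run, and that of Vdr is among them as a description only. Unscaled values moved the median change of all features to -0.35 in wild-type liver, normexp correction to 0.18, and median scaling to 0.10 in HESKOL liver. The causes of these shifts were not tested. No slide held both treatment states of a genotype, so blocked dexamethasone effects rest on comparisons across genotypes. Signal over background limits Vdr, which was above it on 8 of 12 arrays.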
